A study of Mus musculus with 6 samples.

Results

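The HMGA chromatin proteins were represented by 2 of the 30854 gene symbols and 6 of the 45281 probes on the array, namely every probe whose symbol in the deposited signal table is HMGA1 or HMGA2 or begins with HMGA1. There were 3 probes for HMGA1 and 3 for HMGA2, and no longer symbol beginning with HMGA1 was present. The cells were pure monolayers of PA6, a murine stromal cell line used as the feeder layer of embryonic stem (ES) cells, and all arrays therefore derive from 1 cell line. Each group was kept for 3 h in serum-free medium. The -GFs group received no growth factor, the FGF2 group 20 ng/ml of FGF2 and the BMP4 group 10 ng/ml of BMP4 according to the sample labels. RNA came from 2 biological replicates of every group and was read on 6 mouse whole-genome bead arrays of Illumina (MouseWG-6 v2.0), 1 per sample, and each replicate number stands for 1 untreated well, 1 FGF2 well and 1 BMP4 well. The comparison asks how the stroma alone responds to either factor within hours.

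HMGA1 and HMGA2 are small architectural proteins that contact the minor groove of AT-rich DNA through short basic segments called AT-hooks, bend the DNA, compete with linker histone H1 for the fibre and help transcription factors to assemble. Both genes are highly active in embryonic and transformed cells and low in most differentiated tissues. HMGA1 is described as a delayed early gene of serum and growth factor stimulation, whereas the messenger of HMGA2 is a classical target of the microRNA let-7.

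In the RefSeq annotation of GRCm38.p6, Hmga1 lies on chromosome 17 at 27556574-27563672 with 16 annotated transcripts, and Hmga2 on chromosome 10 at 120361268-120476469 with 2. A short gene, Hmga1b, lies on chromosome 11 at 120762794-120764392 and is a retrotransposed copy of Hmga1. Which transcripts each probe reads, and whether an HMGA1 probe also reads Hmga1b, was not analysed here. The 250 bases before the annotated starts of Hmga1 and Hmga2 are shown because HMGA1 was detected in PA6 cells and HMGA2 was not. Each is written 5′ to 3′ in the direction of its gene, and capitals mark the GC box, searched as GGGCGG and its reverse complement CCGCCC, the motif bound by SP1 and related factors. The Hmga1 window is chr17:27556324-27556573 (+) and the Hmga2 window is chr10:120476470-120476719 (-).
Hmga1: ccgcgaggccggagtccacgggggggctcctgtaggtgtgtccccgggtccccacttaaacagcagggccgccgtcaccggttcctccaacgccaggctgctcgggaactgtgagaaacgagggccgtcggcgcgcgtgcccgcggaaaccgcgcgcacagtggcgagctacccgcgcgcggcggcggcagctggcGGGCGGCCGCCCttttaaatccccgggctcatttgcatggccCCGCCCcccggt
Hmga2: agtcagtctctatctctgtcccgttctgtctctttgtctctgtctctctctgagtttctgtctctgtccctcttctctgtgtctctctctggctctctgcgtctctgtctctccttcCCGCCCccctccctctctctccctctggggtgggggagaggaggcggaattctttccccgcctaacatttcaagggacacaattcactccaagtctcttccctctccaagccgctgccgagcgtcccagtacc
The Hmga1 window had 72.8% G and C and held 3 GC boxes, which began 54, 48 and 12 bases before the start. The Hmga2 window had 56.4% G and C and held 1 GC box, 133 bases before the start. Over 32851 promoter windows of the same length the median was 52.4% G and C, and 32.7% held at least 1 GC box. Neither window held the EGR motif GCGNGGGCG (present in 4.7% of all windows), the E-box CACGTG (6.02%), the AP-1 motif TGANTCA (6.75%) or the CArG box bound by SRF (1.47%), all searched on both strands. Hmga1 has another annotated start 30 bases downstream, whose window overlaps the first. It held 4 GC boxes, namely the 3 above and 1 that began 16 bases before that start, and 1 EGR motif sharing letters with the latter. The window of Hmga1b, not shown, had 49.6% G and C and held 0 GC boxes and 1 AP-1 motif, 237 bases before the start. These matches describe the letters only, and binding was not measured.

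The deposited value of a probe is the mean brightness of its beads before normalization, and a detection p-value rates that brightness against control beads that match no gene. The median intensity of an array was 153.4 to 168.1, and 15509 to 16459 probes were detected at a p-value under 0.05. Intensities were brought to a common distribution by a cubic spline and converted to log2, and limma tested the 16111 probes that were detected on both arrays in 1 or more groups. A probe was called where its log2 change exceeded 1 in either direction with an adjusted p-value under 0.1. These are the thresholds that the methods give for limma on the arrays. The 8 stromal markers examined (COL1A1, COL1A2, COL3A1, PDGFRA, PDGFRB, THY1, VIM and CXCL12) were detected on all 6 arrays. Their summed signal before normalization was 88073.3 to 109129 in -GFs medium, 68647 to 74670.6 with FGF2 and 86427.5 to 90495.6 with BMP4. After normalization limma called 0 of the 8 with FGF2. Their changes with FGF2 ran from -0.43 to 0.37 on the log2 scale with a median of -0.29. Undetected on every array were 4 of 6 markers of ES cells (NANOG and SOX2 among them), 4 of 6 of endothelium (CDH5 and PECAM1 among them), 4 of 5 of neural cells and 4 of 4 of haematopoietic cells. The ES cell marker POU5F1 (signals 194.4 to 248.4) and the endothelial marker TEK (201.9 to 353.6) were detected on all 6 arrays. DPPA5A of ES cells was detected on 3, KDR of endothelium on 4 and MAP2 of neural cells on 1. As these are bulk cultures, fewer cells expressing a gene and less RNA of it per cell cannot be told apart. The precision of every value is limited by having 2 arrays per group, for which the smallest two-sided p of an exact permutation test is 0.333.

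Of the 6 HMGA probes, 2 passed the detection filter, both of them for HMGA1. HMGA1 was chosen for its response to FGF2 on these arrays, so its FGF2 values are a description and carry no test. The HMGA1 probe ILMN_2715802 gave a signal of 785.2 and 726.3 on the -GFs arrays. With FGF2 it gave 4787.1 and 6521.2. With BMP4 it gave 726.1 and 554.4. Both FGF2 arrays thus lay far above the other 4, whereas the -GFs and BMP4 arrays overlapped after normalization. On the normalized log2 scale the level was 9.50 ± 0.13 (SD, n = 2) in -GFs medium, 12.49 ± 0.32 (SD, n = 2) with FGF2 and 9.35 ± 0.35 (SD, n = 2) with BMP4. The difference between FGF2 and -GFs was 2.99 on the log2 scale, or 7.94-fold, with 2.85 and 3.12 in the pairs of arrays sharing a replicate number. With any array left out in turn it stayed between 2.75 and 3.23. The same ratio was 7.48 on the deposited intensities, and 8.97 when the typical signal of undetected probes on each array was first subtracted. Among the 16111 probes tested this was the 10th largest fitted rise. Among 11872 genes read by their brightest probe it stood between LOC240672 at 3.13 and CCRN4L at 2.84. Without FGF2, LOC240672 lay near the lowest detected level, and it passed the detection filter through the FGF2 group alone. The background share of probes called up with FGF2 was 2.1%, and 1.12% were called down. For HMGA1 these figures are given beside a value that the choice of the gene used, and nothing is read from them.

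**Figure D1:**
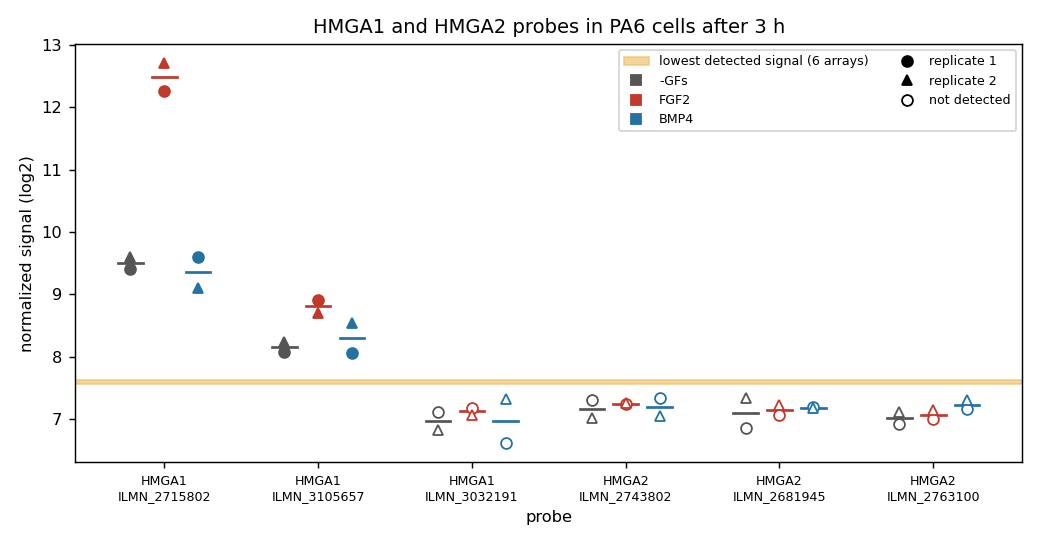
Signal after normalization (log2, vertical axis) of the 6 HMGA probes (horizontal axis), with each point 1 array, coloured by group and shaped by replicate, open where undetected, the short line the group mean and the band the lowest detected signal of the 6 arrays. Of the HMGA1 probes, ILMN_2715802 had a mean of 9.50 in -GFs medium and 12.49 with FGF2, while HMGA1 ILMN_3032191 and all 3 HMGA2 probes stayed undetected in every group.

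The HMGA1 probe ILMN_3105657 was also detected on all 6 arrays. Its signal was 303.9 and 285.3 in -GFs medium, 485.7 and 395.4 with FGF2, and 255.1 and 370.4 with BMP4. The FGF2 arrays were again the highest of the 6, but replicate 2 of the BMP4 arrays came close to replicate 2 of the FGF2 arrays. On the normalized log2 scale the level was 8.16 ± 0.11 (SD, n = 2), 8.81 ± 0.15 (SD, n = 2) and 8.29 ± 0.34 (SD, n = 2) in -GFs medium, with FGF2 and with BMP4. The difference between FGF2 and -GFs was 0.65 on the log2 scale, or 1.57-fold, with 0.83 and 0.47 in the pairs. It depended on how the background was treated, being 1.04 with limma's neqc and 0.94 with the typical undetected signal subtracted. Of all probes tested, 6.05% had a higher fitted change, and this probe ranked 975th. Both HMGA1 probes had their FGF2 arrays above all 4 other arrays, as did 2934 of the 16111 probes tested (18.2%).

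The HMGA1 probe ILMN_3032191 did not share this pattern. It gave 142 and 109.5 in -GFs medium, 144.1 and 136.4 with FGF2, and 93.4 and 165.8 with BMP4, and it was undetected on every array. The lowest signal among detected probes was 190.5 and 192.7 on the FGF2 arrays, so that all values of this probe lay below the range in which a level can be read. This probe therefore gave no detectable signal with or without FGF2, and no fold change is given. That does not show that a transcript at its position is absent.

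The FGF2 values of the HMGA1 probes were then set side by side. ILMN_2715802 exceeded ILMN_3105657 on the log2 scale by 1.32 and 1.35 on the -GFs arrays, by 3.34 and 4.01 on the FGF2 arrays and by 1.55 and 0.57 on the BMP4 arrays. The difference between 2 probes on 1 array depends on the probes themselves, and only its movement between groups is read here. It was larger on both FGF2 arrays than on the other 4. The FGF2 changes of the pair of probes were 2.34 apart, and 1.99 to 2.68 apart with any array left out. Across the 3140 genes with at least 2 tested probes, the absolute gap between the FGF2 changes of the brightest probe and the next had a median of 0.16. A gap at least as large as that of HMGA1 was found in 2 genes (0.0637%), HMGA1 itself and EGR3, an early growth response transcription factor whose probes changed by 3.43 and 0.12. As HMGA1 was chosen for its FGF2 values, this share is a description and nothing is read from it. Where the brightest probe of a gene was called up with FGF2 (95 genes), the next probe was called up as well in 46 genes (48.4%), and its median change was 1.03. For BMP4 the gap between the HMGA1 probes was -0.28, against a median absolute gap of 0.13 over all such genes. The position of the probes in the transcripts was not analysed here, and its part in the gap was not tested.

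**Figure D2:**
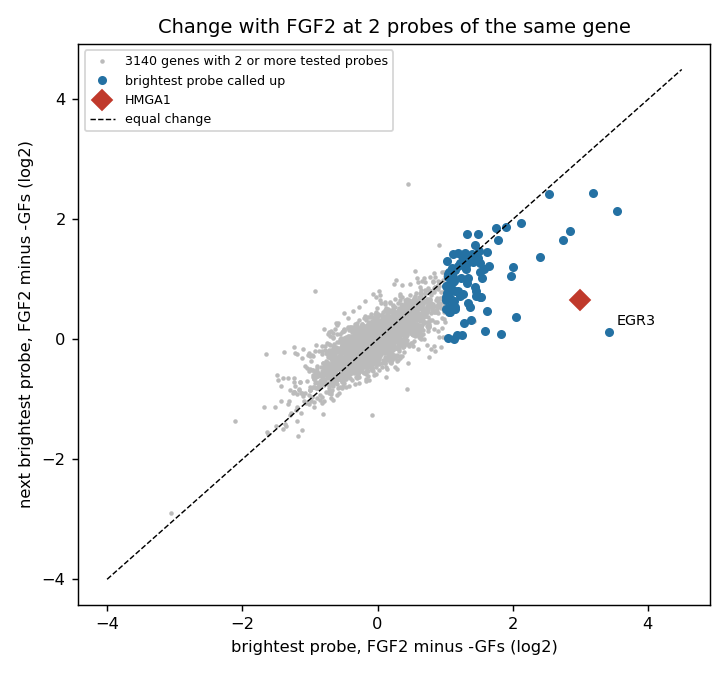
Log2 fold change with FGF2 of the brightest probe of a gene (horizontal axis) and of its next probe (vertical axis) for the 3140 genes with at least 2 tested probes, with the line of equal change. Each point is 1 gene, blue where its brightest probe was called up. HMGA1 lies at 2.99 and 0.65, and EGR3 at 3.43 and 0.12, both far below the line.

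In cells treated with BMP4 for 3 h, HMGA1 did not pass the test. ILMN_2715802 changed by -0.14 on the log2 scale (standard error 0.23, 95% confidence interval -0.70 to 0.41, limma adjusted p = 0.9997), which is 0.905-fold with an interval of 0.617 to 1.33. The pairs of arrays went in opposite directions, 0.20 and -0.49. ILMN_3105657 changed by 0.14 (standard error 0.20, interval -0.34 to 0.61, limma adjusted p = 0.9997), or 1.10-fold with an interval of 0.791 to 1.53, and its pairs gave -0.02 and 0.29. Without BMP4 replicate 2 the signs of both probes turned, to 0.10 and -0.10. The intervals bound any change of HMGA1 with BMP4 but do not show that there was none. Over all probes tested, limma called 1 with BMP4 (0.00621%), that of ID1, an inhibitor of DNA binding and a classical BMP target, which rose by 2.77 (adjusted p = 0.0106). At an unadjusted p under 0.05 there were 288 probes. Set directly side by side, ILMN_2715802 was 3.13 higher with FGF2 than with BMP4 on the log2 scale (2.65 and 3.61 in the pairs), and ILMN_3105657 was 0.52 higher (0.86 and 0.18). These last values share the FGF2 arrays with those above and carry no test.

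HMGA2 was not detected in PA6 cells under any condition. None of its 18 values, 3 probes on 6 arrays, passed a detection p-value of 0.05, and the p-values ran from 0.20727 to 0.94551. Probe ILMN_2743802 gave 163.5 and 125.5 in -GFs medium, 150 and 154.6 with FGF2, and 152.8 and 137 with BMP4. Probe ILMN_2681945 gave 118.2 and 156, then 132.7 and 151.9, then 138.6 and 149.3 in the same order of groups. Probe ILMN_2763100 gave 124.1 and 134.1, then 126.5 and 143, then 135.3 and 163.5. All of these signals lay between 118.2 and 163.5 with a median of 140.8, around the typical signal of undetected probes, which was 134.5 to 148 per array, and 8 of the 18 lay below it. Neither factor brought a probe of HMGA2 above the detection limit, and no fold change is given. An undetected probe gives an upper bound on signal and does not show that the transcript is absent. The single probe of HMGB1, a chromatin protein found in nearly all mammalian cells, was also undetected on all 6 arrays, with signals of 186.2 and 149.9, 158.8 and 148, and 159 and 152.

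Other genes around HMGA function were examined through 6 lists, and the comparisons of these lists with -GFs medium share the same control arrays. The lists were chosen with earlier results of these data known. Their FGF2 counts and adjusted p-values are therefore a description, and no enrichment over the all-probe share is read from them. The first holds the other high mobility group proteins, which are the HMGB proteins with their DNA-bending boxes, the nucleosome-binding HMGN proteins and further HMG-box proteins. Of its 15 members 11 were tested, and limma called 0 with FGF2, as against 3.22% of all probes tested. At an unadjusted p under 0.05 there was 1 member, against 3626 of all 16111 probes, and the methods' t-test with the same fold called 0. Changes ran from -0.31 to 0.52 with a median of -0.04 on the log2 scale, against a median of -0.02 over all probes tested. HMGB2 had -0.06, HMGN1 had -0.04, HMGN2 had -0.23 at its brightest probe and 0.25 at another, and HMGXB3 gave the highest value at 0.52 (limma adjusted p = 0.331). In the other AT-hook proteins, which hold the same DNA-binding segment in larger nuclear proteins, 12 of 18 were tested and limma again called 0. At an unadjusted p under 0.05 there were 2, and the methods' t-test with the fold called 0, beside the same all-probe counts. Their median was 0.05, and AHCTF1, a nucleoporin that binds chromatin, had the highest value at 0.74 (limma adjusted p = 0.0886), short of the threshold on the fold.

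Linker histones, which bind where DNA enters and leaves the nucleosome, had 4 of 8 members tested, and limma called 1 down and 0 up with FGF2, against 1.12% down and 2.1% up of all probes tested. The methods' t-test with the fold also called 1, against 403 of all 16111 probes. H1F0, the linker histone variant that accumulates in resting and differentiated cells, had signals of 984.9 and 911.2 in -GFs medium, 405.7 and 361.2 with FGF2, and 709.2 and 872 with BMP4. The FGF2 arrays were the lowest 2 of the 6, and the -GFs and BMP4 arrays overlapped on the log2 scale. H1F0 fell by 1.21 on the log2 scale (standard error 0.16, limma adjusted p = 0.0118). Its call was lost without FGF2 replicate 1 (-1.25, adjusted p = 0.105) or FGF2 replicate 2 (-1.16, adjusted p = 0.133). In these fits, here and in the lists that follow, the group holds 1 array, which is assumed to vary like the other groups, and the design is smaller. The other tested members were HIST1H1B (-0.10), HIST1H1C (-0.16) and H1FX (-0.40), and none of them passed the test.

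The let-7 pathway list holds proteins that make or block let-7 and messengers described as its targets, and 16 of its 21 members were tested. The let-7 blockers LIN28A and LIN28B were undetected on all 6 arrays. With FGF2, limma called 1 up and 0 down (2.1% and 1.12% of all probes tested). The methods' t-test with the fold called 1, against 403 of all 16111 probes. A single call among 16 members is not a result about the list. The median of its values was 0.44, against -0.02 over all probes tested. This median includes MYC, which passed the detection filter through the FGF2 group alone, and no shift of the list is read from it. The gene called, IGF2BP2, encodes an RNA-binding protein of insulin-like growth factor messengers and is also described as a target gene of HMGA2. Its signals were 2700.3 and 1965.6 in -GFs medium, 5293.1 and 4613.6 with FGF2, and 3036.5 and 2503.3 with BMP4. Any link of these values to HMGA2, whose probes were undetected here, was not tested. Both FGF2 arrays were above all others, and IGF2BP2 rose by 1.18 (standard error 0.21, limma adjusted p = 0.0282). It was not called without -GFs replicate 2 (1.08, adjusted p = 0.104), FGF2 replicate 1 (1.07, adjusted p = 0.185) or FGF2 replicate 2 (1.28, adjusted p = 0.167). The related IGF2BP1 (0.74, adjusted p = 0.0463) and the Argonaute protein AGO2 (0.78, adjusted p = 0.0594) passed limma's adjusted p alone and stayed under the fold threshold.

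Of 17 factors described as regulators of HMGA genes 14 were tested, and limma called 5 up and 0 down with FGF2 (2.1% and 1.12% of all probes tested), with a median of 0.15. Because earlier results were known when the list was chosen, no enrichment is read from these counts. The methods' t-test with the same fold called 2, against 403 of all 16111 probes. The AP-1 subunits JUNB (2.08, adjusted p = 0.0233), JUN (1.24, adjusted p = 0.0394) and FOS (1.61, adjusted p = 0.0934) rose. So did SMAD3 (1.49, adjusted p = 0.0105), which carries TGFβ signals to the nucleus, and the TGFβ ligand gene TGFB1 (1.14, adjusted p = 0.027). FOS gave signals of 225.4 and 193.7, then 423.2 and 882.8, then 145.8 and 339.5 in -GFs, FGF2 and BMP4 cultures, and the FGF2 replicates lay far apart. MYC, described as a direct activator of HMGA1, was detected on 3 arrays, both with FGF2 and 1 in -GFs medium, and passed the detection filter through the FGF2 group alone. Its signals were 139.9 and 191.7, then 206.8 and 223.7, then 115.4 and 191.3 in -GFs, FGF2 and BMP4 cultures, and no fold change is read from them. The median of the list includes MYC and carries that limit. SP1, which binds GC boxes such as those shown for Hmga1, had -0.21 at its brightest probe and 0.20 at another, and E2F1 had -0.77 (adjusted p = 0.0613). TCF7L2, which carries WNT signals with β-catenin, had -0.92 (adjusted p = 0.0273), short of the fold threshold, and was called down with median scaling (-1.02), without normalization (-1.02) and with neqc (-1.16). The call of FOS was lost with neqc (2.69, adjusted p = 0.130), without the detection filter (adjusted p = 0.102) and without any of the 4 -GFs and FGF2 arrays (adjusted p = 0.142 to 0.398). Without FGF2 replicate 2 the calls of JUNB, JUN, SMAD3 and TGFB1 were lost too (adjusted p = 0.114 to 0.198), and without FGF2 replicate 1 those of JUNB (0.119) and JUN (0.200). JUN was also lost without -GFs replicate 1 (adjusted p = 0.108) or -GFs replicate 2 (adjusted p = 0.119).

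Genes described elsewhere as targets of HMGA proteins had 8 of 17 members tested, and with FGF2 limma called 3 up and 1 down (2.1% and 1.12% of all probes tested), with a median of 0.10. This list too was chosen with earlier results known, and no enrichment is read from its counts. Apart from IGF2BP2, the calls were the mesenchymal transcription factors SNAI1 (1.52, adjusted p = 0.0103) and TWIST1 (1.18, adjusted p = 0.011), which rose, and SNAI2, which fell by 1.58 (adjusted p = 0.0346). Another tested probe of SNAI1 had 0.71, under the fold threshold. The methods' t-test with the fold called 3 members, against 403 of all 16111 probes. TWIST1 had signals of 362.3 and 339.7 in -GFs medium, 754.8 and 746.9 with FGF2, and 383.6 and 403.3 with BMP4, and its FGF2 arrays lay above all others. The 3 were not called without FGF2 replicate 2 (adjusted p = 0.117 for SNAI1, 0.122 for TWIST1 and 0.239 for SNAI2). Without FGF2 replicate 1, TWIST1 (adjusted p = 0.103) and SNAI2 (0.111) were not called, and without -GFs replicate 1 SNAI2 was not called (adjusted p = 0.104). Members of this list moved in both directions, as the range from -1.58 to 1.52 shows. Without FGF2 replicate 2, 97 of all probes tested were called with FGF2, against 519 (3.22%) with all arrays. With BMP4, limma called 0 members in each of the 6 lists, and the list medians were between -0.13 and 0.08 (0.00 over all probes tested). At an unadjusted p under 0.05 the counts with BMP4 were 1 for the AT-hook proteins, 1 for the regulators, 2 for the described targets and 0 for the other lists. Over all 16111 probes the count was 288. The methods' t-test with the fold called 0 list members and 8 of all probes.

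**Figure D3:**
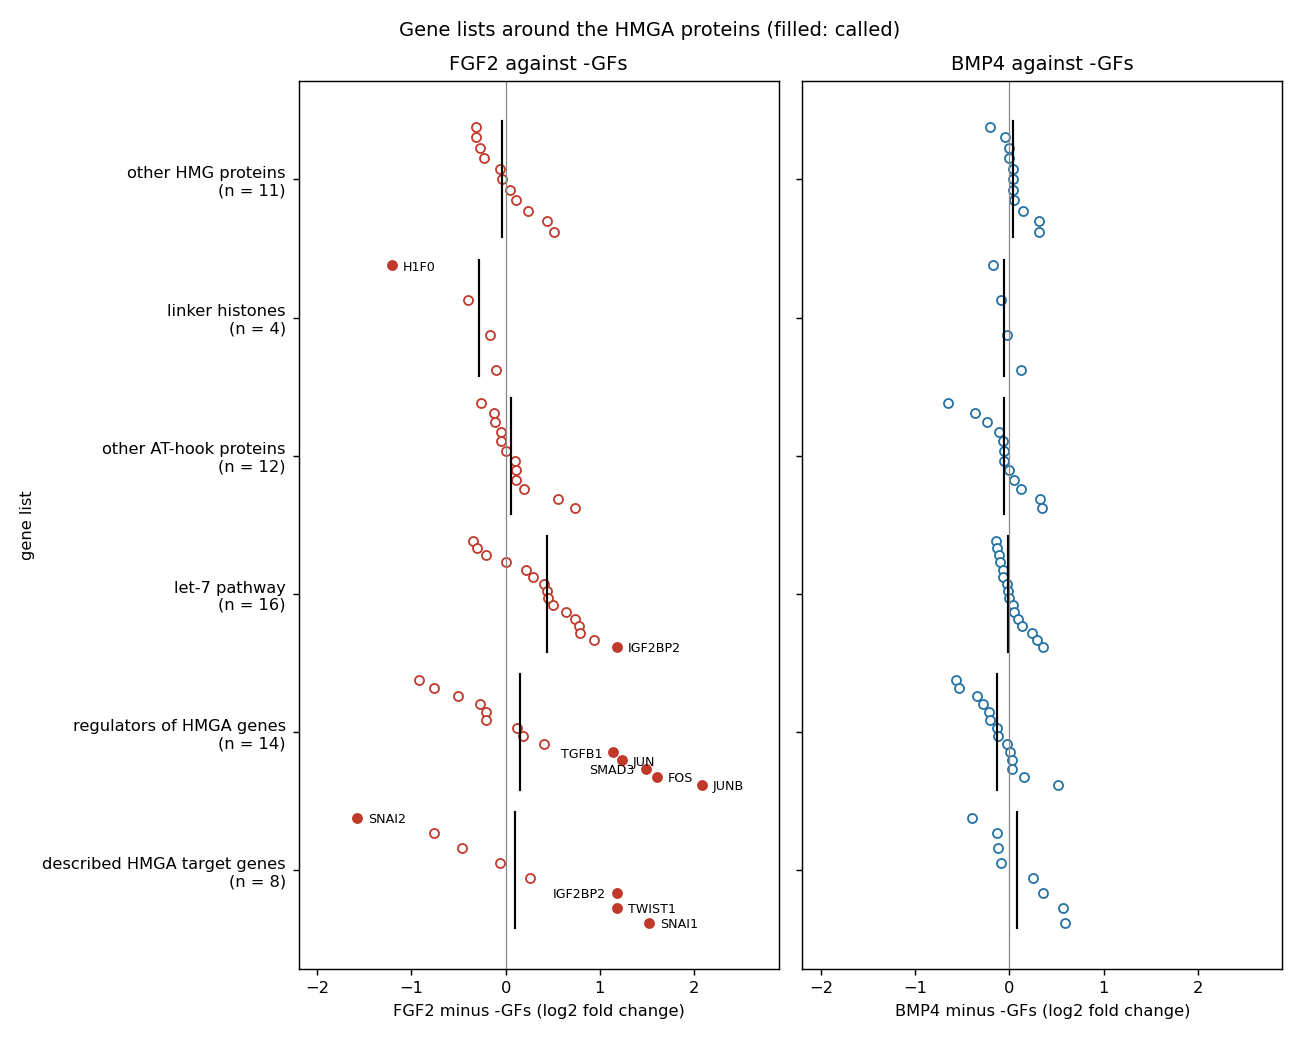
Log2 fold change with FGF2 (left) and BMP4 (right) of the tested members of the 6 gene lists, 1 point per gene, filled where limma called it, with the list median as a short line. Points and medians include MYC, which passed the detection filter through the FGF2 group alone. The calls with FGF2 stand among the regulators (5), the described targets (4), the let-7 pathway (1) and the linker histones (1), IGF2BP2 being in both of the lists that name it, and no point is filled with BMP4.

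The genes whose profile over the 6 arrays was nearest to that of ILMN_2715802 were found by the root mean square distance between log2 values, each profile centred on its -GFs mean. They were LOC240672 (distance 0.20), CCRN4L (0.28), CCDC85B (0.28), LOC381140 (0.29) and EGR3 (0.30). By its gene identifier LOC240672 is Dusp5, a phosphatase of ERK, and CCRN4L is an older symbol of Noct, the deadenylase-like protein nocturnin. Their changes with FGF2 were 3.13, 2.84, 2.59, 2.72 and 3.43 on the log2 scale. With BMP4 the changes were -0.01 for CCRN4L, -0.02 for CCDC85B and 0.01 for LOC381140. LOC240672 lay below the lowest detected level of the array on -GFs replicate 2 (7.61 against 7.62) and BMP4 replicate 2 (7.54 against 7.60). EGR3 lay below it on both BMP4 arrays (7.49 against 7.57 and 7.39 against 7.60). Changes that rest on these arrays carry that limit, and no BMP4 change is read for either gene. As LOC240672 passed the detection filter through the FGF2 group alone, nothing is read from its FGF2 change or its place among the nearest genes. The distances are a description over 6 arrays, chosen by likeness to HMGA1, and carry no test. In 3 of these genes a further probe was tested, and it changed by 1.80 for CCRN4L, 0.44 for CCDC85B and 0.12 for EGR3. For CCDC85B the probe near HMGA1 in profile was the dimmer of the pair.

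**Figure D4:**
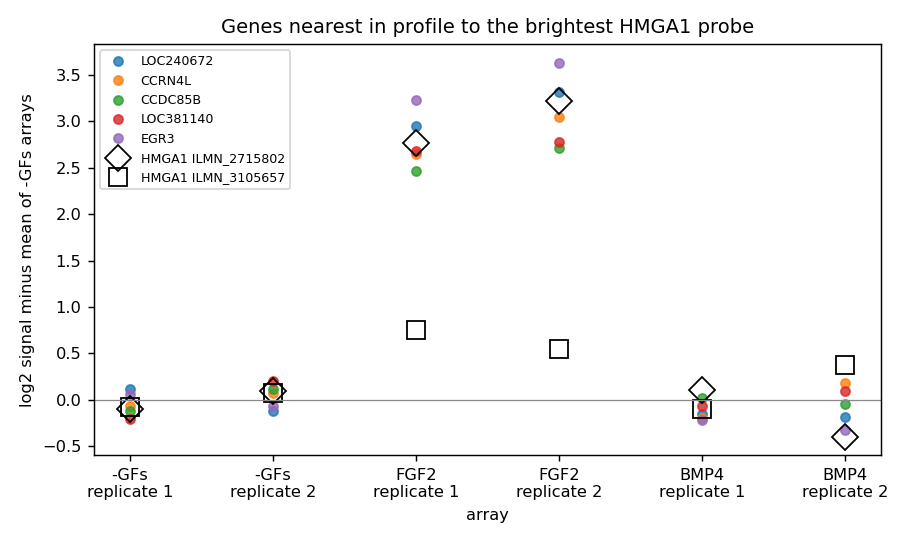
Log2 level relative to the mean of the -GFs arrays (vertical axis) on each of the 6 arrays (horizontal axis) for HMGA1 probe ILMN_2715802, HMGA1 probe ILMN_3105657 and the 5 nearest genes. The nearest genes lie with ILMN_2715802 on the FGF2 arrays, and ILMN_3105657 stays well below them with FGF2. On the BMP4 arrays CCRN4L, CCDC85B and LOC381140 lie near 0, and LOC240672 and EGR3 are not read there.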

How the data were processed

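PA6 cells were profiled on 6 arrays, 2 per group, and samples were grouped by their labels. The authors deposited array intensities, the mean bead brightness per probe before normalization, with detection p-values from GenomeStudio 2011.01. The methods name cubic spline normalization and, for the arrays, limma at the thresholds on fold and adjusted p used here. What is called the methods' t-test is the unpaired t-test that they name for data in general. Left unused were 9 unnamed columns, which hold values on 2045 lines, and 6 lines left over at the end.

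The spline was written anew in R 4.3.3, mapping 452 quantiles of each array onto their means, and values were converted to log2. limma 3.58.1 (lmFit, eBayes) was fitted on all 6 arrays and 16111 probes, with 3 residual degrees of freedom and Benjamini-Hochberg adjustment over all probes. Each list gene was read from its tested probe of highest mean. Typical undetected signal was the median of probes with a detection p-value of 0.45 to 0.55. The procedure was tested on simulated data.

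Genes named are the HMGA probes, list members that were called, up to 3 further members per list by role, and the 5 genes nearest to the brightest HMGA1 probe. IGF2BP1, AGO2 and other members beyond that number, and HMGB1, were named after their values were seen. HMGA1, HMGA2 and the lists were chosen with earlier results of these data known.

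Replicate numbers pair the arrays, since by the labels a replicate holds 1 well of each group. Deviations from group means of arrays sharing a number correlated across probes (0.588 between -GFs and FGF2, 0.726 between -GFs and BMP4, 0.564 between FGF2 and BMP4). Alternatives were quantile normalization, neqc (offset 16), median scaling, no normalization, other detection filters, the replicate block, the methods' t-test, single arrays left out and, chosen after seeing the data, subtraction of the background level. Promoter sequences are from RefSeq (GRCm38.p6). FOSL1, SMAD4 and HK2 were matched to no probe and not analysed here.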

Additional observations from a re-analysis of the deposited data

How the results depend on the processing

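The FGF2 change of HMGA1 probe ILMN_2715802 was 2.89 to 3.25 and that of ILMN_3105657 0.57 to 1.04 over the planned normalizations. The latter moved from 0.65 to 1.04 with neqc and to 0.94 with the background level subtracted, a setting chosen after seeing the data. With single arrays left out the ranges were 2.75 to 3.23 and 0.55 to 0.76. The BMP4 changes lay between -0.40 and 0.10 for ILMN_2715802 and between -0.10 and 0.37 for ILMN_3105657, and without BMP4 replicate 2 they were 0.10 and -0.10, each reversed. Their limma adjusted p stayed between 0.930 and 0.99999 over 14 alternatives. The number of probes called with FGF2, 519, was 1014 with neqc, 1698 with the adjusted p alone, 0 by the methods' t-test once corrected (403 unadjusted, 2352 at any fold) and 97 to 554 with single arrays left out. Rises made up 65.1% of calls, 54.8% with neqc, 51.0% with median scaling and 50.9% without normalization. With BMP4, 1 probe was called, against 0 with neqc (448 at an unadjusted p under 0.05), 2 without the detection filter, 8 with the unadjusted t-test, 0 after its correction (573 unadjusted at any fold) and 0 to 1 with single arrays left out (173 to 466 unadjusted). With the replicate block 11 probes were called with BMP4 (9 up and 2 down) and 583 with FGF2, and the block changed no call of an HMGA probe or list member. The causes of these shifts were not tested, and for the arrays the methods name limma, not the t-test. The number of arrays limits all values, and signals near the background compress fold changes.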
